A study of Mus musculus with 12 samples.

Results

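Cluster 14 of the cultured hepatocytes is a cluster of nuclei that the authors numbered in their table of nuclei. Its members were taken as the nuclei of the Primary Hepatocytes (PH) samples that this table calls cultured cells and places in cluster 14. This gave 1682 nuclei, out of 14760 in the 4 cultured hepatocyte clusters 0, 1, 14 and 17, out of 18394 nuclei of the PH samples and out of 53467 nuclei in the series. Cluster 0 held 5961 of the cultured hepatocyte nuclei, cluster 1 held 5846 and cluster 17 held 1271. A further 4 nuclei with this cluster number came from the Cell Suspension (CS) samples and were left out.

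The series compared liver tissue (Liver, L), hepatocytes in suspension directly after perfusion and isolation (CS) and hepatocytes kept for 24 hours on collagen (PH), each from the same 8 mice, in 24 samples. The animals were males of 10 to 12 weeks, with no treatment and no genetic change named, of the strain given as C57BL6J in the labels and as C57BL/6NTac in the study's methods. Nuclei were tagged per sample with a hashtag antibody, sorted and mixed 4 samples at a time into 6 pools, and 4 of these pools held PH samples. The RNA was read as unique molecular identifiers (UMIs), each of which counts 1 captured RNA molecule. All 8 PH samples were of 1 condition, and each is a separate mouse, so the clusters were compared within each sample. The PH samples came from a preparation enriched for hepatocytes, and the culture also held endothelial and stellate nuclei, which have clusters of their own. Between 159 and 355 cluster 14 nuclei were kept per sample, with 893061 to 2084230 summed UMIs.

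Hepatocytes are the main parenchymal cells of the liver and make plasma proteins, urea, bile acids and drug-metabolizing enzymes. When they are isolated and plated as a monolayer, they are known to lose much of this program and to gain cytoskeletal and stress genes. In nuclei a large part of the RNA is still pre-mRNA, and reads that fall in introns are counted as unspliced. The unspliced share of a gene or a nucleus therefore gives the balance between young and processed transcripts.

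Cluster 14 was found in every PH sample, at 11.3% ± 2.79 (SD, n = 8 samples) of the cultured hepatocyte nuclei. The lowest share was 8.80% in mouse 1 (exact 95% binomial interval 7.63 to 10.1%), the median 10.8% and the highest 16.9% in mouse 7 (15.3 to 18.6%). These intervals cover counting error only. The intervals of mouse 1 and mouse 7 did not overlap, so the samples differed by more than counting error. Over the same samples, cluster 0 took 39.8% ± 10.5, cluster 1 took 40.1% ± 7.29 and cluster 17 took 8.75% ± 5.59, the last with a range from 4.47 to 20.2%. By pool, the share of cluster 14 was 9.94% in the only PH sample of pool 2, 8.80 to 11.8% in pool 3, 8.99 to 16.9% in pool 4 and 9.16 to 13.4% in pool 5. The spread within pools 3 to 5 was thus wider than the difference between their means. A barcode sequence shared with a kept nucleus of another pool was found for 23 cluster 14 nuclei (1.37%), against 1.26% of all kept nuclei, and in 0 of these 23 cases was the other nucleus in cluster 14.

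**Figure D1:**
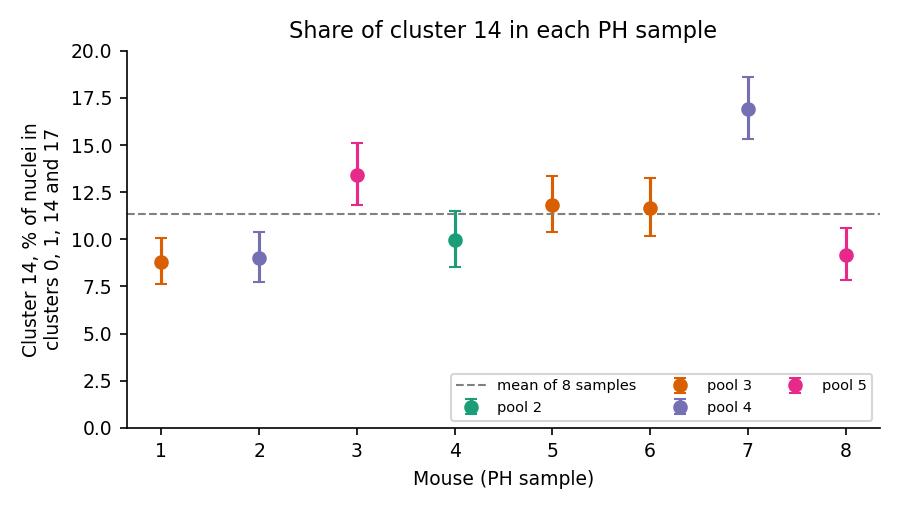
Share of cluster 14 among the nuclei of clusters 0, 1, 14 and 17 (y axis, percent) in each PH sample (x axis, mouse number), with colors for the pools, error bars for exact 95% binomial intervals and a dashed line for the mean. All 8 samples hold the cluster, from 8.80% in mouse 1 to 16.9% in mouse 7.

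The clusters were made from the same counts, so the gene levels that follow describe the cluster and are given without tests. Levels are in CPM (UMIs scaled to the same total, 1000000, in each sample and cluster) of the summed nuclei of a sample, and a log2 ratio is the mean over 8 samples of the log2 ratio of CPM + 5 to that of clusters 0, 1 and 17 together. The cluster was marked by Grm4, Dnajc6, Srsf12 and Asb15, which have known roles outside the liver. Grm4, a metabotropic glutamate receptor of neurons, had 147 CPM in the lowest, 274 in the median and 645 in the highest sample of cluster 14, against 1.29, 2.57 and 3.68 CPM in clusters 0, 1 and 17 together (log2 ratio 5.22). Dnajc6 encodes the brain form of auxilin, which uncoats clathrin vesicles, and its 3 values were 346, 450 and 642 CPM, against 13.0, 15.9 and 21.6 CPM (log2 ratio 4.45). For Srsf12, of the SR protein family of splicing regulators, they were 122, 189 and 223 CPM, against 1.07, 1.77 and 2.57 CPM (log2 ratio 4.75). Asb15, an ankyrin repeat and SOCS box protein best known from skeletal muscle, had 213, 240 and 320 CPM, against 7.08, 8.93 and 12.6 CPM (log2 ratio 4.15). The groups did not overlap for any of the 4 genes, which the choice of markers implies.

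Within the comparison clusters the markers were not evenly low. Dnajc6 had a mean of 60.9 CPM in cluster 17 (range 17.2 to 114), against 13.0 in cluster 0 and 16.0 in cluster 1. Grm4 had 7.0 CPM in cluster 17, 3.07 in cluster 1 and 1.45 in cluster 0. In hepatocytes before culture the levels were lower still: Grm4 was at 1.15 CPM in CS and 0.588 in Liver, Dnajc6 at 2.70 and 1.53, Srsf12 at 0.652 and 0.431, and Asb15 at 1.43 and 1.02. The high levels were thus seen in cultured nuclei of cluster 14 and in neither of the earlier sample types.

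**Figure D2:**
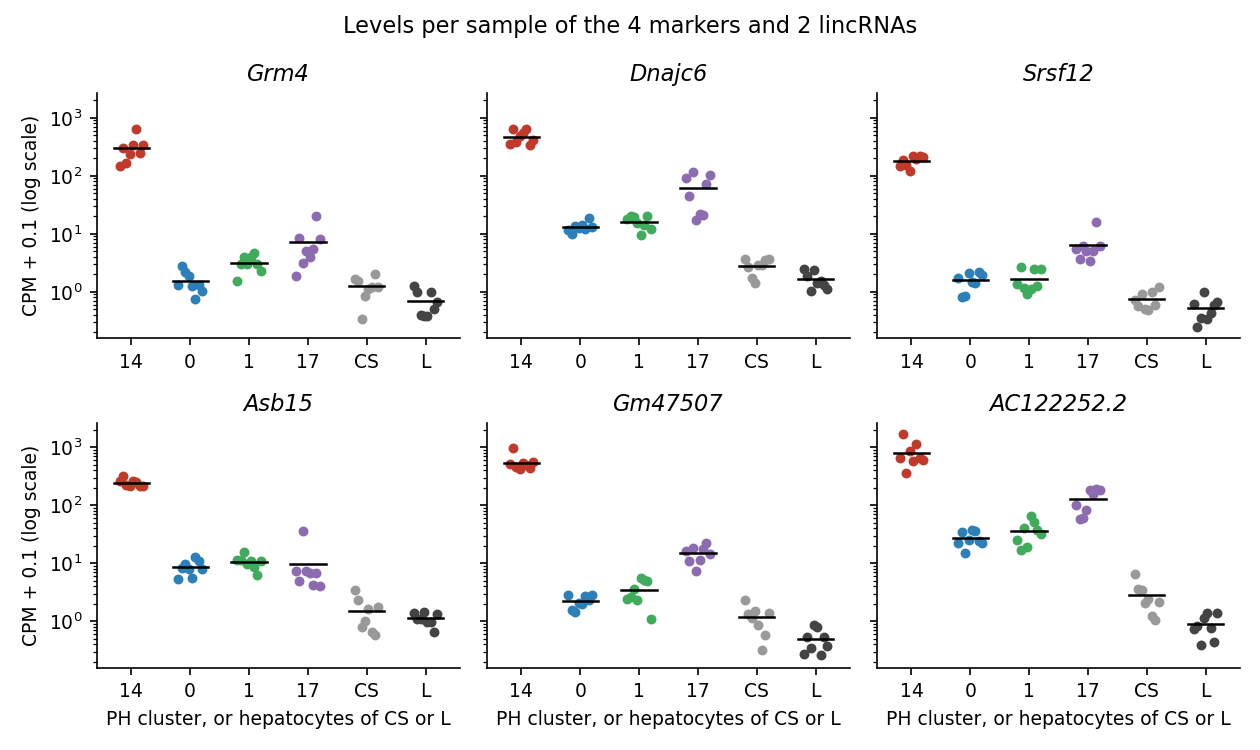
Level of the 4 marker genes and of the long non-coding RNAs Gm47507 and AC122252.2 (y axis, CPM, log scale) in each sample (points, 8 per group). The groups are cultured clusters 14, 0, 1 and 17 and CS and L hepatocytes (x axis), with bars at the mean. The 8 points of cluster 14 lie above all points of the other 5 groups in each panel.

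On genome build GRCm38, Grm4 lies on chromosome 17 from 27422387 to 27521403 (minus strand), Dnajc6 on chromosome 4 from 101496648 to 101642799 (plus), Srsf12 on chromosome 4 from 33208991 to 33233340 (plus) and Asb15 on chromosome 6 from 24528144 to 24573164 (plus). Windows of 250 bases before to 50 bases after the RefSeq starts (GRCm38.p6, plus strand) are shown for Srsf12, Dnajc6 (outer and inner start) and Asb15. These promoters differ in base composition although the genes are high in the same cluster. Both Dnajc6 windows lie inside the gene span given above, so outer and inner refer to these windows only. No window is shown for Grm4. Capitals mark the GC box GGGCGG or its complement CCGCCC. The windows are chr4:33209022-33209321, chr4:101507726-101508025, chr4:101550344-101550643 and chr6:24527894-24528193, with 69.0%, 48.3%, 58.7% and 42.0% G and C and with 1, 0, 1 and 0 GC boxes.
Srsf12: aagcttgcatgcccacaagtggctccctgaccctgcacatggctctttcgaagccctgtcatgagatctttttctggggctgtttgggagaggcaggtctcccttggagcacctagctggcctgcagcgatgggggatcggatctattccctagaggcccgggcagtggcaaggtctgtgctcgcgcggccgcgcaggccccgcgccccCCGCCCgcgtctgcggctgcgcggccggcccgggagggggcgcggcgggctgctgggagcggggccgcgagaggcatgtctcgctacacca
Dnajc6, outer start: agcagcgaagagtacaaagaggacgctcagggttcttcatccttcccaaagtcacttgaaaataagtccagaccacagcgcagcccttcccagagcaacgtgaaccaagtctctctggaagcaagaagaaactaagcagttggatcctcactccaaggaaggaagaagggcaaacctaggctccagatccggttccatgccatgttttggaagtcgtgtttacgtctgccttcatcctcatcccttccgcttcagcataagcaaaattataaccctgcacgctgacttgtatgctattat
Dnajc6, inner start: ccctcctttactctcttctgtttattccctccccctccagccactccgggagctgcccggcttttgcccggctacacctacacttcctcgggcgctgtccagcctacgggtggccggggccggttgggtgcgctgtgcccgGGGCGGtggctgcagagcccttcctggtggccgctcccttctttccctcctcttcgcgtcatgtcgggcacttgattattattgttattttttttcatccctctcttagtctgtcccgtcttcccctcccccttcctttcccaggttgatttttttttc
Asb15: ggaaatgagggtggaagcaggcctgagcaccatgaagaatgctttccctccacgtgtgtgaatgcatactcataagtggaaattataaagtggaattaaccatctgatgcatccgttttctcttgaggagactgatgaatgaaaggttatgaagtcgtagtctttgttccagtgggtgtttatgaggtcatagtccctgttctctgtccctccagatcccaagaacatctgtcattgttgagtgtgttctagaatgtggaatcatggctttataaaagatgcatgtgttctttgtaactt

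Among genes with at least 10 CPM on either side, 992 of 10279 (9.65%) were called higher in cluster 14 than in clusters 0, 1 and 17 together and 70 (0.681%) lower. A gene was called with a mean log2 ratio past 1 and the same sign in all 8 samples. With TMM scaling factors in place of plain CPM the split was 725 higher and 223 lower, since these factors moved the median log2 ratio of all tested genes by -0.26. TMM factors from the tested genes alone moved it by -0.04 and gave 946 and 87. Of the 992 genes, 610 were under 10 CPM in the comparison clusters and so passed the filter through cluster 14 alone, and 382 (of 8986 genes at or above 10 CPM there) did not depend on it. Against cluster 0 alone 1196 genes (11.6%) were higher and 270 (2.61%) lower, against cluster 1 it was 958 (9.33%) and 11 (0.107%), and against cluster 17 it was 1322 (12.7%) and 352 (3.38%). The 11 lower genes against cluster 1 became 19 without mouse 5, 17 without mouse 6, 63 with TMM factors from all genes and 81 with spliced counts alone. A set of 640 genes was higher against each of the 3 clusters and 0 genes were lower against each. When every cluster was set against the other 3 by the same rule, a description added after these values were seen, cluster 0 had 259 higher (2.7%) and 285 lower (2.97%), cluster 1 had 17 (0.18%) and 227 (2.4%), and cluster 17 had 416 (4.28%) and 878 (9.02%). The 992 genes took 7.46% ± 0.870 (SD, n = 8) of the UMIs of cluster 14, against 1.63% in cluster 0, 1.98% in cluster 1 and 2.40% in cluster 17.

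Most of the other genes with the largest ratios were long non-coding RNAs. The lincRNA Gm47507 had 426, 504 and 961 CPM in the lowest, median and highest sample, against 2.36, 2.88 and 6.77 CPM (log2 ratio 5.98). For the lincRNA AC122252.2 the values were 363, 657 and 1687 CPM, against 24.6, 30.1 and 67.7 CPM (log2 ratio 4.20). Grik4, a subunit of kainate glutamate receptors, had 124, 194 and 487 CPM, against 4.09, 6.48 and 11.4 CPM (log2 ratio 4.19). Rgma, a coreceptor for bone morphogenetic proteins and an axon guidance molecule, had 94.4, 111 and 168 CPM, against 1.54, 2.06 and 3.48 CPM (log2 ratio 4.09). The others of the 15 largest ratios were 2810407A14Rik (4.50), Gm30551 (4.10), A730081D07Rik (4.06), 5330417C22Rik (3.91), Map3k7cl (3.80), Gm15614 (3.78) and Gm36173 (3.75), none with overlap between the groups. These genes were picked by their ratios in the same counts, so the lack of overlap is largely set by that choice. Mouse 2 was the highest sample of cluster 14 for 10 of the 15 leading genes, Gm47507, AC122252.2 and Grik4 among them, and the highest sample of clusters 0, 1 and 17 together for 1 of the 15. Without mouse 2, a setting added after the data were seen, the log2 ratios were 5.84 for Gm47507, 3.98 for AC122252.2 and 4.04 for Grik4, and those of all 15 genes lay between 3.63 and 5.84. A730081D07Rik and Gm15614 are annotated as antisense RNAs, and since it is not given in the sources used here whether strand was used in counting, their UMIs cannot be told apart from those of the genes opposite.

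The genes called lower were fewer and their ratios were nearer to 0, and each of the 10 with the lowest ratios had its highest level among the 4 cultured hepatocyte clusters in cluster 0. Sorbs2, an actin-associated adaptor, had 643, 765 and 977 CPM in cluster 14 (lowest, median, highest), against 1785, 2314 and 2706 CPM (log2 ratio -1.55). It stood at 3996 CPM in cluster 0, 768 in cluster 1 and 156 in cluster 17. Nox4, an NADPH oxidase that makes hydrogen peroxide, had 70.3, 78.5 and 224 CPM, against 232, 301 and 421 CPM (log2 ratio -1.73). Eppk1, the intermediate filament linker epiplakin, had 90.2, 119 and 219 CPM, against 244, 358 and 632 CPM (log2 ratio -1.51). Ankrd1, a target of the YAP coactivator, was low in cluster 14 (0.00 to 6.26 CPM) and was high in cluster 0 alone, with 48.1 CPM there against 2.16 in cluster 1 and 1.58 in cluster 17. Its groups overlapped (log2 ratio -1.92). The others of the 10 lowest ratios were Dlc1, Kynu, St3gal5, C1s1, Anxa3 and Sntb1, at -1.58 to -1.42. Over cluster 17, Sorbs2 and Anxa3 were called higher (log2 ratios 2.39 and 1.67), and the rest of these 10 genes were not called. Against cluster 1, Eppk1, Plcl1 and Cps1 had the lowest ratios of the called genes, and against cluster 17 it was Akr1c19, Car3 and Ugt2b37, enzymes of steroid, carbon dioxide and drug handling.

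Few hepatocyte genes were called. Of 20 hepatocyte genes 0 were called higher (9.65% of all tested genes) and 1 lower (0.681%), with a median log2 ratio of -0.07 beside -0.01 over all tested genes. The list's median was 0.11 over cluster 0, -0.08 over cluster 1 and -0.47 over cluster 17. The 20 genes summed to 2619 to 6349 CPM over samples of cluster 14. Their sums were 2384 to 7824 CPM in the cultured endothelial cluster 12 and 2130 to 6380 in the cultured stellate cluster 27. These sums thus did not set cluster 14 apart from cultured nuclei of other cell types. Alb had 1340 CPM ± 468 against 1351 ± 512 (log2 ratio 0.00). The gene called lower was Cps1, the entry enzyme of the urea cycle, at 202, 459 and 1301 CPM against 532, 1122 and 2519 CPM (log2 ratio -1.28). Of 17 tested hepatocyte transcription factors 1 was called, Prox1, at 69.5 CPM ± 9.17 against 161 ± 34.1 (log2 ratio -1.14). Prox1 stood at 201 CPM in cluster 0, 130 in cluster 1 and 30.8 in cluster 17. Hnf4a, a master regulator of the hepatocyte fate, had 121 CPM against 214 (log2 ratio -0.80, not called). The median of the 17 factors was -0.26, with 3 of them above 0, and it was -0.51 over cluster 0, -0.06 over cluster 1 and 0.39 over cluster 17. All 19 factors of the list summed to 1058 to 1327 CPM in cluster 14, 696 to 1205 in cluster 12 and 724 to 1189 in cluster 27. Among zonation genes, the pericentral Lgr5, a receptor for R-spondins that strengthens Wnt signaling, was higher (47.5 CPM against 4.67) as 1 of 6 tested, and the periportal Cdh1, encoding E-cadherin, was lower (82.1 CPM ± 26.8 against 182 ± 43.0) as 1 of 9. The log2 ratio was above 0 for 5 of the 6 tested pericentral genes (median 0.42) and for 0 of the 9 tested periportal genes (median -0.50). Over samples, the 10 pericentral genes summed to 203 to 487 CPM in cluster 14 and 1887 to 2942 in Liver hepatocytes. In clusters 0, 1 and 17 they summed to 144 to 286, 127 to 212 and 185 to 330 CPM. The 10 periportal genes summed to 297 to 719 CPM in cluster 14 and 2644 to 7143 in Liver hepatocytes. Their sums in clusters 0, 1 and 17 were 565 to 1226, 464 to 1099 and 513 to 1027 CPM. Lgr5, under 10 CPM in the comparison clusters, passed the filter through cluster 14 alone. The level of Lgr5 was 83.9 CPM in Liver and 52.6 in CS hepatocytes.

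Few genes of the stress and culture lists were called. The 10 genes that mark the change to culture had 0 called genes and a median log2 ratio of -0.05. On the plain CPM scale no gene was called among 17 tested p53 targets, 15 early response, 12 heat shock and 17 unfolded protein response genes. The same held for 15 hypoxia genes, 15 interferon genes, 13 genes of NF-kB inflammation, 19 of cholesterol synthesis and 13 of lipogenesis. It also held for 11 clock genes, 25 splicing regulators and 10 nuclear long non-coding RNAs. Of all tested genes 9.65% were called higher and 0.681% lower. The medians of these lists lay between -0.44 and 0.15. The log2 ratio was above 0 for 0 of the 15 interferon genes and 2 of the 13 of NF-kB inflammation, each with a median of -0.44. Over clusters 0, 1 and 17 the medians were -0.39, -0.45 and 0.10 for interferon and -0.59, -0.06 and 0.05 for NF-kB. For YAP targets 3 of 12 were lower, beside 0.681% of all tested genes, namely Ankrd1, Ccn1 (69.3 CPM against 154) and Ccn2 (10.7 against 34.4), and the list's median was -0.57. Ccn1 and Ccn2 encode matricellular proteins induced by stretch and spreading. The ratios followed cluster 0, where Ccn2 stood at 70.1 CPM, against 3.82 in cluster 1 and 2.31 in cluster 17. Slc7a11, the cystine transporter induced by Nrf2, was the only gene called of 17 tested Nrf2 targets (176 CPM against 84.9), beside 9.65% of all tested genes called higher, and cluster 17 had more of it (304). Plin2, which coats lipid droplets (411 CPM against 198), and Pdk4, a kinase that shuts down pyruvate dehydrogenase (73.7 against 31.6), were the 2 genes called higher of 15 tested for fatty acid oxidation, whose median was 0.02, again beside 9.65% of all tested genes. Pdk4 stood at 15.6 CPM in cluster 0, 43.8 in cluster 1 and 58.0 in cluster 17. It was called over cluster 0 but not over cluster 1 or 17, and its groups overlapped. Flna, filamin A, was lower as 1 of 22 genes of cytoskeleton and adhesion, and Hpx, hemopexin, as 1 of 20 acute phase genes, both beside 0.681%.

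Some genes of muscle and of the cell cycle were called higher in cluster 14, while most genes on these lists were under 10 CPM on both sides and so were not compared. All 4 tested muscle genes were called higher (of 20 on the list, the rest under 10 CPM on both sides), among them the sarcomere giants Ttn (350 CPM ± 157 against 37.4 ± 17.7) and Neb (423 ± 45.5 against 151 ± 16.3), and the actin nucleator Lmod2 (32.3 ± 4.10 against 4.97 ± 0.800). Beside the 9.65% of all tested genes that were called higher, 3 of 10 tested replication genes were, the helicase component Gins2 (23.2 CPM against 3.01), the origin licensing factor Cdc6 (11.6 against 2.16) and the repair helicase Brip1 (85.2 against 15.1). Mki67 (29.7 CPM against 5.39) and Tpx2 (18.1 against 2.44) were higher as 2 of 4 tested mitosis genes, while the other 14 genes on that list were under 10 CPM on both sides. Piwil2, a germline Argonaute protein, was higher as 1 of 4 tested germline genes (49.4 CPM against 9.94), and Igf2bp3, a fetal RNA-binding protein, as 1 of 4 fetal liver genes (35.6 against 14.5). Because a gene under 10 CPM in the comparison clusters could pass only if it was higher in cluster 14, these counts, like the 9.65% of all tested genes, are in part set by the filter and cannot be read as a share of the lists. Of 20 neuronal genes 2 were tested and 0 called, the synaptic calcium sensor Syt1 (34.0 CPM against 14.05, log2 ratio 0.996) and the RNA-binding protein Celf3 (10.8 against 5.26, log2 ratio 0.61). The calls near the threshold depended on the scaling. With TMM factors from all genes, 17 of the 21 list members called higher and all 9 called lower kept their calls, those of Igf2bp3, Pdk4, Plin2 and Slc7a11 were lost, and 19 further members were called lower. Among these were Hnf4a (log2 ratio -1.08 with TMM), the urea cycle enzyme Arg1 (-1.19), the early response factor Fos (-1.12) and the heat shock protein Hspb1 (-1.11).

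Markers of endothelial and stellate cells, which the culture held, were checked beside these genes. Markers of Kupffer cells, leukocytes and biliary cells, which the study reported as absent from the culture, were checked too. Of 8 tested endothelial markers 2 were called higher, beside 9.65% of all tested genes: Tek, an angiopoietin receptor (171 CPM ± 25.1 against 14.3 ± 2.43), and Pecam1, an endothelial adhesion molecule (27.4 ± 7.57 against 6.12 ± 0.589). The 12 endothelial markers summed to 261 to 406 CPM over samples of cluster 14, against 5335 to 7915 in the cultured endothelial cluster 12. They summed to 93.2 to 165 in cluster 0, 93.1 to 189 in cluster 1 and 79.2 to 237 in cluster 17. Tek alone made up 171 of the mean sum of 335 CPM in cluster 14, and 11.9 of 116 CPM in cluster 0. The log2 ratio was above 0 for 7 of the 8 tested markers, with a median of 0.68 (0.51 over cluster 0, 0.88 over cluster 1 and 0.67 over cluster 17). Pecam1, under 10 CPM in the comparison clusters, passed the filter through cluster 14 alone. The counts of 2 and 7 of the 8 markers and their median are thus in part set by the filter. Flt1 (26.2 CPM against 33.6) was not called, Ptprb (7.57 against 8.07) and Kdr (2.19 against 2.13) were under the filter, and 0 of the 12 markers were at 0 UMIs. The 12 stellate markers summed to 90.0 to 391.99 CPM in cluster 14, 60.1 to 373 in cluster 0, 88.9 to 824 in cluster 1 and 138 to 755 in cluster 17, against 2910 to 3765 in the cultured stellate cluster 27, and 0 of 3 tested were called. The 8 Kupffer cell markers, all under 10 CPM and so not tested, summed to 11.9 to 31.4 CPM in cluster 14, 8.78 to 18.8 in cluster 0, 6.76 to 21.7 in cluster 1 and 6.01 to 27.4 in cluster 17. The 10 leukocyte markers, of which 1 was tested and not called, summed to 26.3 to 58.1 CPM in cluster 14, 40.1 to 77.9 in cluster 0, 19.4 to 26.7 in cluster 1 and 15.03 to 27.4 in cluster 17. Of 3 tested biliary markers Pkhd1 was called lower (56.0 CPM against 138), beside 0.681% of all tested genes, with its highest level in cluster 0 (246). The other two had ratios above 0, and the median of the 3 was 0.64. Whether RNA of any of these cell types is part of the gene levels of cluster 14 was not tested.

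In single nuclei several leading genes were often found together. After each nucleus was thinned to 1000 UMIs, 73.0% of cluster 14 nuclei (67.9 to 82.5% over samples) held at least 2 different ones of the 15 leading genes, against 1.38% in cluster 0, 2.06% in cluster 1 and 4.49% in cluster 17. Counted as UMIs, 75.6% of cluster 14 nuclei (70.9 to 86.1% over samples) had at least 2 UMIs on the 15 leading genes, against 1.85% in cluster 0, 2.63% in cluster 1 and 6.54% in cluster 17. The thinning left out 16 nuclei of cluster 14, 8 of cluster 0, 33 of cluster 1 and 1 of cluster 17. No UMI on these genes was seen in 9.48% of cluster 14 nuclei, against 87.8%, 84.2% and 76.0% in the other clusters. Without thinning the median was 20 UMIs per nucleus in cluster 14 and 1 in each of the others. Gm47507 was seen in 60.8% of cluster 14 nuclei at full depth and in 2.19% of the others, Dnajc6 in 69.7% and 7.53%, and Asb15 in 60.5% and 4.86%. The leading genes were picked from these nuclei, so these shares describe how the signal is spread over them and are no test of the cluster.

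**Figure D3:**
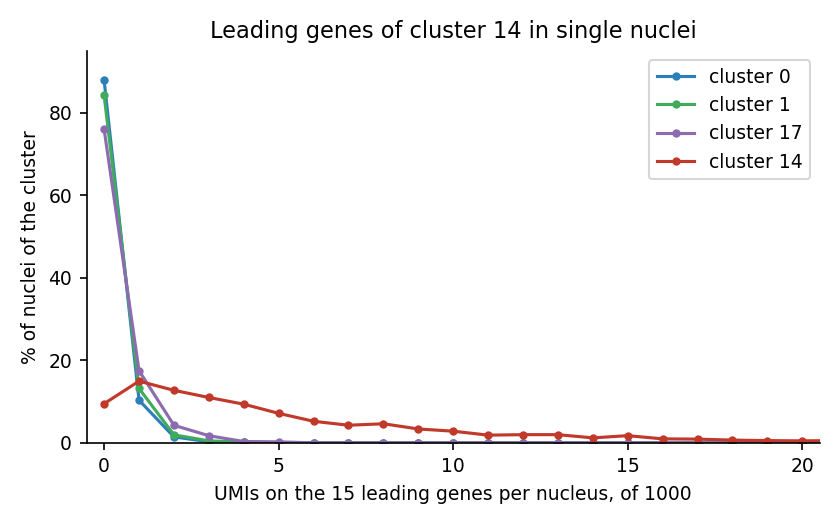
UMIs on the 15 leading genes per nucleus after thinning to 1000 UMIs (x axis) against the percent of nuclei of each cluster (y axis), with a line for each of clusters 14, 0, 1 and 17. Cluster 14 has 9.48% of its nuclei at 0 UMIs, while 76.0 to 87.8% of the nuclei of the other clusters are there.

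The clusters were made from nearest neighbors in these same counts, so an excess of neighbors from the own cluster is fixed in advance, and the values describe only how the nuclei lie across mice. Among the 20 nearest neighbors of a cluster 14 nucleus in the space of 35 principal components, 56.5% ± 3.4 (SD, n = 8) were in cluster 14, which made up 11.3% of the 14702 nuclei used. For nuclei of cluster 0 the share of cluster 14 neighbors was 2.25%, for cluster 1 it was 4.48% and for cluster 17 it was 4.05%. Of the cluster 14 neighbors of cluster 14 nuclei 71.0% came from another mouse, while 86.5% of cluster 14 nuclei belong to other mice on average. Among these cluster 14 neighbors, nuclei of the same sample were thus more frequent than their share of the cluster, and most were from other samples.

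The unspliced share was no criterion of its own for the members, but the clusters were made from RNA counts. The genes called higher in cluster 14 had a median unspliced share of 86.2% there, against 67.8% for all tested genes. The share is therefore not independent of membership, and the tests below describe the clusters. The unspliced share differed between the clusters in every mouse. In cluster 14 it was 59.3% of UMIs in the lowest, 62.8% in the median and 64.8% in the highest sample (62.6% ± 1.73, SD, n = 8). In cluster 0 it was 65.3% ± 1.62, and cluster 14 was lower in 8 of 8 samples, by 2.16 to 3.45 percentage points (mean difference -2.74, two-sided exact paired permutation test, p = 0.00781, adjusted p = 0.0156). Against cluster 1 (64.1% ± 2.03) it was lower in 8 of 8 samples with a mean difference of -1.51 (exact p = 0.00781, adjusted p = 0.0156). Against cluster 17 (60.8% ± 2.11) it was higher in 8 of 8 samples with a mean difference of 1.79 (exact p = 0.00781, adjusted p = 0.0156). The raw p is the smallest that 8 pairs can give, and adjustment was by Benjamini and Hochberg over 12 tests. The ranges of the clusters over the mice overlapped, so these differences are seen within mice. The median RNA UMIs per nucleus, averaged over samples, had the same order as the unspliced share. They were 7517 in cluster 0, 6141 in cluster 1, 5813 in cluster 14 and 4644 in cluster 17. In mice 3, 7 and 8, however, cluster 14 had more UMIs per nucleus than cluster 1. Whether depth sets part of the unspliced differences was not tested.

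Which genes a cluster expresses sets part of its unspliced share, so the observed share was set beside that expected if each gene of cluster 14 had its unspliced share from the comparison cluster. Beyond this gene mix, cluster 14 was 2.49 percentage points less unspliced than expected from cluster 0 (observed 62.6%, expected 65.1%, exact paired test over 8 samples that all went down, adjusted p = 0.0156). The difference from cluster 1 was -2.0 points (8 of 8 lower, exact test, adjusted p = 0.0156). From cluster 17 it was -1.14 points, with 6 of 8 samples lower (exact test, adjusted p = 0.0469), so the mean difference had the opposite sign once the gene mix was taken into account. That last call was lost when mouse 2, 3, 4, 6, 7 or 8 was left out, with differences from -1.21 to -0.872 and adjusted p from 0.075 to 0.0938 (exact tests). The expected shares used the unspliced share of each gene over all 8 mice of the comparison cluster. With gene shares from the same mouse, an alternative added after the data were seen, the difference was -2.27 points from cluster 0 and -1.84 from cluster 1, each lower in 8 of 8 samples (exact tests, adjusted p = 0.0156 for both). From cluster 17 it was then -0.739 points, lower in 7 of 8 samples, and the call was lost (exact test, adjusted p = 0.0586), with 75.5 to 93.1% of the cluster 14 UMIs of a sample in genes that could be used.

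**Figure D4:**
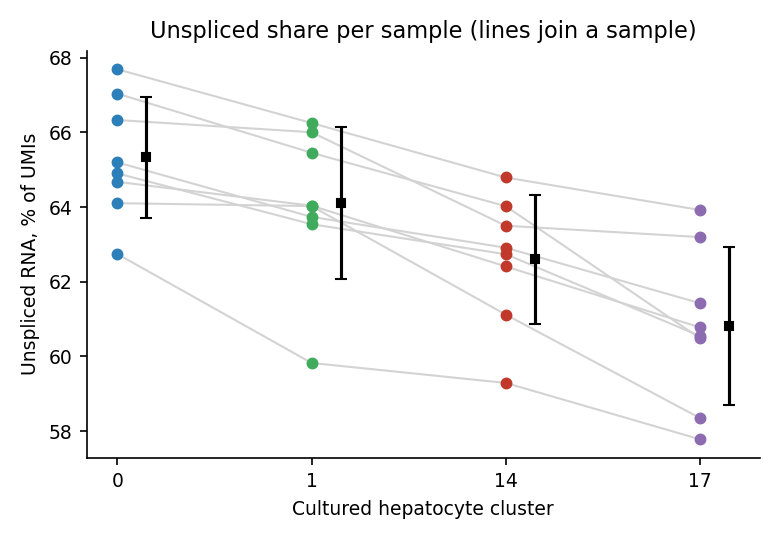
Unspliced RNA as percent of UMIs (y axis) in each sample of clusters 0, 1, 14 and 17 (x axis), with a line joining the clusters of a sample. Every sample is lower in cluster 14 than in clusters 0 and 1, and higher than in cluster 17.

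Among 31 single named genes with at least 5 UMIs on both sides in 2 or more samples, 8 were more and 3 less unspliced in cluster 14 than in clusters 0, 1 and 17 together at an adjusted p of 0.05 (exact paired permutation tests). AC122252.2 showed the largest difference, at 70.7% ± 4.86 unspliced in cluster 14 against 35.6% ± 7.81 (higher in 8 of 8 samples, exact p = 0.00781, adjusted p = 0.0303). Rgma was 82.0% ± 2.61 unspliced against 63.8% ± 10.7, also higher in 8 of 8 samples (exact test, adjusted p = 0.0303). At 2.28 CPM in the comparison clusters, Rgma passed the filter through cluster 14 alone. The others that were more unspliced were Grik4, A730081D07Rik, Gm15614, Sorbs2, Eppk1 and Anxa3, by 2.63 to 9.04 points. The less unspliced ones were Nox4, Sntb1 and Cps1, by 2.16 to 3.05 points. Of the 8 more unspliced genes, Sorbs2, Eppk1 and Anxa3 were picked as largest falls and the rest as largest rises. Grik4, at 6.81 CPM in the comparison clusters, also passed the filter through cluster 14 alone. The genes were picked by total UMIs of these nuclei, which hold the unspliced ones, so these tests describe the named genes only. None of the 4 markers passed: Grm4 was 93.1% unspliced against 95.7% (lower in 7 of 8 samples, exact test, adjusted p = 0.0745), Dnajc6 95.4% against 96.6%, Srsf12 87.3% against 80.7% and Asb15 91.8% against 89.3%. The RNA of the markers was thus mostly intronic in both groups. For 28 of the 31 genes all 8 samples could be used. Ankrd1 had 2 usable samples and so could not pass, Ugt2b37 had 6 and Ccn2 had 7, and C1s1 had 0 unspliced UMIs on both sides, so that it showed no difference to test.

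Hashtag counts, which come from separate libraries, also bear on how firmly the nuclei belong to their samples. The median share of a nucleus's hashtag UMIs on its assigned tag was 45.9% ± 5.83 (SD, n = 8) in cluster 14. It was 3.64 points higher than in cluster 17 (42.2%), in 8 of 8 samples (exact paired permutation test, adjusted p = 0.0156). The difference was 0.470 points from cluster 0 (adjusted p = 0.367, exact test) and 0.760 points from cluster 1 (adjusted p = 0.0729, exact test). Hashtag UMIs per nucleus were 93.2 above cluster 17 (1315 against 1222, higher in 7 of 8 samples, exact test, adjusted p = 0.0268, a call lost without mouse 3, 4, 7 or 8 at 86.7 to 95.4 UMIs), 15.3 above cluster 0 (adjusted p = 0.162, exact test) and 23.0 above cluster 1 (adjusted p = 0.113, exact test). The median RNA UMIs per nucleus were 5813 ± 1493 in cluster 14, 7517 ± 1499 in cluster 0, 6141 ± 1535 in cluster 1 and 4644 ± 1262 in cluster 17. At an equal 1000 UMIs the genes per nucleus were 751, 736, 741 and 721 in the same order, so the mean of cluster 14 was the highest. It was higher than cluster 0 in 7 of 8 samples, by 15 ± 11.2 genes (SD, n = 8), with 727 against 730 genes in mouse 6, and higher than cluster 1 by 9.50 ± 5.34 and than cluster 17 by 29.7 ± 6.54, each in 8 of 8 samples.

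What the 992 higher genes share was described after their values were seen, by class, splicing state and place in the genome. Their median unspliced share in cluster 14 was 86.2%, against 67.8% for all tested genes, and their median length 36.0 kb against 31.3 kb. Of 351 tested lincRNAs 128 (36.5%) were higher, of 212 antisense RNAs 59 (27.8%), and of 9535 protein-coding genes 775 (8.13%), beside 9.65% of all tested genes. These shares hold many genes that could pass the filter only by being higher. Among genes of at least 10 CPM in clusters 0, 1 and 17 together, 25 of 185 lincRNAs (13.5%), 22 of 126 antisense RNAs (17.5%) and 324 of 8543 protein-coding genes (3.79%) were higher. For the 382 higher genes of this kind the median unspliced share was 87.1% and the median length 48.8 kb, against 66.3% and 31.7 kb for all 8986. Promoter windows were matched for 692 of the 992 genes and for 7973 of all tested. The windows of the higher genes had a median of 56.7% G and C against 60.7%, and 44.8% of them held a GC box against 63.0% of those tested and 35.6% of all 27025 windows. In the genes of at least 10 CPM in the comparison clusters the values were 57.0% against 61.3% G and C, and 44.2% against 64.9% with a GC box. The letters TATAAA were found in 9.54% against 7.71%. Both motifs were searched on both strands, and their matches cannot overlap, since GGGCGG and TATAAA share no letters.

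A low gene was more often higher in cluster 14 when it lay past the 3′ end of an expressed gene. Low genes were those of 0.5 to 10 CPM in clusters 0, 1 and 17 together, and 656 of 9432 (6.96%) had a log2 ratio of at least 1 with all samples above 0. For each, the nearest gene of at least 50 CPM (of 4049) within 20 kb was found, and its orientation was read from the GENCODE M21 annotation of GRCm38. Of low genes past the 3′ end of the expressed gene, 110 of 554 (19.9%) on the same strand and 118 of 554 (21.3%) on the opposite strand were higher. Before the 5′ end it was 35 of 406 (8.62%) on the same strand and 29 of 446 (6.50%) on the opposite strand. With no expressed gene within 20 kb it was 321 of 6529 (4.92%), and for genes overlapping an expressed gene 43 of 943 (4.56%). Since the strand setting of counting is not given in the sources used here, UMIs given to a gene on the opposite strand of the expressed gene may stem from either strand, and this holds for every opposite-strand value and pair below. The median log2 ratios were 0.41 ± 0.05 (SD, n = 8) and 0.42 ± 0.05 on the 3′ side, 0.20 and 0.16 on the 5′ side, 0.14 with none and 0.05 with overlap.

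Summed over genes, the levels did not overlap between the groups for any class of place. With no expressed gene nearby, the low genes summed to 31086 to 37318 CPM in cluster 14, against 16823 to 21133 in the comparison clusters. Low genes past a 3′ end on the same strand summed to 5404 to 7454 CPM in cluster 14, against 1738 to 2045 in clusters 0, 1 and 17 together, a mean ratio of 3.24 ± 0.330 (SD, n = 8). For the opposite strand the ratio was 3.12 ± 0.390. Before a 5′ end the ratios were 2.10 and 1.75, with none nearby 1.77 and with overlap 1.57. In the single clusters the same-strand sum was 1802 CPM in cluster 0, 2022 in cluster 1 and 2597 in cluster 17, and it was 3008 in Liver and 2661 in CS hepatocytes, whose own low genes were not those chosen here. Mouse 2 had the highest sum of cluster 14 for both strands on the 3′ side. Without it the sums reached 6898 CPM on the same strand and the ratios were 3.17 ± 0.273 and 3.04 ± 0.344 (SD, n = 7), with 19.7% and 20.8% of the genes higher, against 8.13% and 5.83% on the 5′ side. The low genes were chosen by their low level in the comparison clusters, on the 3′ and 5′ sides alike. The higher sums in cluster 14 and the lack of overlap are thus in part set by this choice.

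On the 3′ side the share of higher genes was lower from 20 kb on. It was 17.3% at 0 to 5 kb, 22.9% at 5 to 10 kb, 22.6% at 10 to 20 kb, 13.8% at 20 to 50 kb, 8.98% at 50 to 100 kb and 5.38% at 100 to 200 kb. On the 5′ side it was between 3.66 and 7.73% at all these distances. With the level of the expressed gene it went from 16.3% at 50 to 100 CPM to 21.7% at 100 to 200, 23.8% at 200 to 400 and 40.0% (26 of 65 genes) from 400 CPM. The expressed genes themselves differed little, with a median log2 ratio of -0.02 over the 223 that lie before higher low genes and of -0.15 over all 939 that lie before low genes. They were chosen by a level of at least 50 CPM. Some met this in the comparison clusters and not in cluster 14, such as Mapk9 (59.9 CPM against 46.2 in cluster 14). Their ratios are thus in part set by this choice. An expressed neighbor that was itself past 1 was found for 6 of the 228 higher genes on the 3′ side (2.63%) and for 11 of all low genes there (0.993%).

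**Figure D5:**
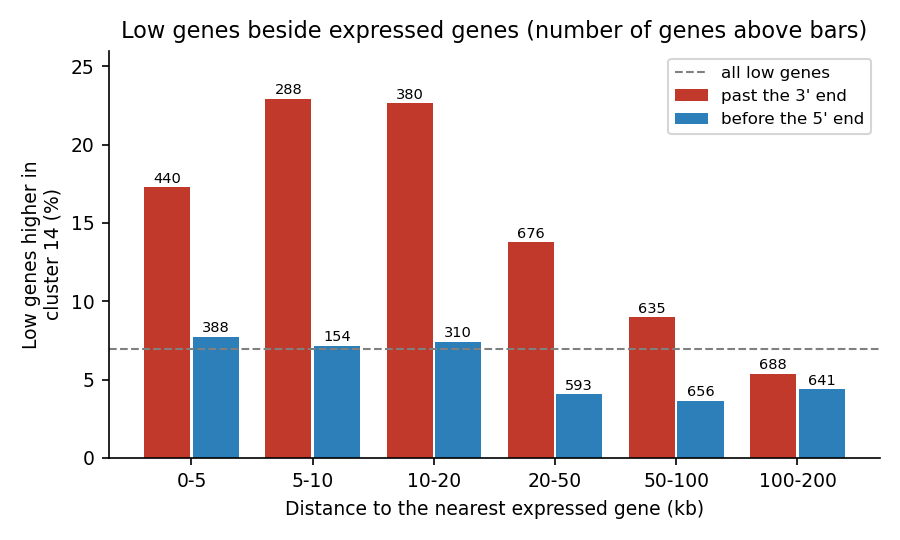
Percent of low genes that are higher in cluster 14 (y axis) by distance from the nearest expressed gene in kb (x axis). Paired bars stand for genes past its 3′ end and before its 5′ end, with the number of genes above each bar. A dashed line gives the share of all low genes. The 3′ bar is higher than the 5′ bar in all 6 distance bins, with its highest value of 22.9% at 5 to 10 kb.

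Of the 15 leading genes, 5 lay past the 3′ end of an expressed gene within 20 kb, 2 lay before a 5′ end, 2 overlapped an expressed gene and 6 had none nearby. Gm47507 (chromosome 13, 5887109 to 5928045, plus strand) starts 16.7 kb past the end of Klf6 on the same strand, and Klf6, an early response transcription factor, had 990 CPM in cluster 14 against 547 (log2 ratio 0.84). AC122252.2 starts 2.39 kb past Dusp1, a phosphatase that shuts off MAP kinases, which had 221 CPM against 139 (log2 ratio 0.60). Srsf12 and Pnrc1 face each other with their 3′ ends 12.1 kb apart, and Pnrc1, a nuclear receptor coactivator, had 285 CPM against 211 (log2 ratio 0.48). Rgma lies 6.74 kb from Chd2, a chromatin remodeler on the opposite strand (792 CPM against 687, log2 ratio 0.21). Gm36173 lies 12.7 kb from Cep85l on the opposite strand, which had 817 CPM against 1139 (log2 ratio -0.49). The log2 ratio of the expressed neighbor was thus above 0 for 4 of these 5 genes and below 0 for 1, and none of the 5 neighbors was called. AC122252.2, at over 10 CPM in the comparison clusters, was not among the low genes. Among other higher genes, Lgr5 lies 17.5 kb from the 3′ end of Zfc3h1 (489 CPM against 540), also on the opposite strand. On the same strand Lix1 follows Riok2 at 7.77 kb (143 CPM against 9.69) and L3mbtl1 follows the splicing factor gene Srsf6 at 6.35 kb (70.8 against 3.0).

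The genes next to the other markers were also looked up. Leprot, 4.92 kb past Dnajc6, had 30.5 CPM against 9.77 (log2 ratio 1.24), and Lepr, the leptin receptor, 74.6 kb past it, had 118 against 9.36 (log2 ratio 3.03). Lmod2, 24.6 kb past Asb15, is the actin nucleator given among the muscle genes. Gabrr2, a GABA receptor subunit gene 113 kb before Srsf12, had 18.5 CPM against 3.11 (log2 ratio 1.52). The antisense RNA Gm49774, 24.3 kb before the start of Grm4 on the same strand, had 461 CPM against 79.4 (log2 ratio 2.53). The remaining neighbors were not called, among them Ak4 before Dnajc6 (137 CPM against 93.3), Rngtt past Srsf12 (174 against 184) and Wasl past Asb15 (225 against 170). Since the pattern was found in these nuclei and the clusters were built from the same counts, it is a description of cluster 14 and has no test.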

How the data were processed

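Single-nucleus RNA and hashtag libraries of 24 samples in 6 pools were used. The authors demultiplexed nuclei by hashtag, removed doublets, clustered the nuclei in Seurat from neighbors in principal components of SCTransform-normalized RNA counts, and quantified spliced and unspliced GRCm38 sequence with Salmon, Alevin and Alevin-fry. bcl2fastq 2.19.0 is also named in the submitters' processing notes. The deposited matrices hold raw counts of UMIs per barcode and gene for spliced, unspliced and ambiguous RNA, and of the hashtags. In the authors' table, each nucleus has its counts, its labels and a fraction that gives the margin of its demultiplexing, which was not used here. No nucleus was added, no further doublet caller was run, and the strand setting of counting is not given in the sources used here.

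The 3 splicing states were added and UMIs summed per sample and cluster, with at least 10 nuclei in each. Genes with at least 10 CPM on a side were compared as log2 ratios of CPM + 5. The 4 markers, the 15 largest rises and 10 largest falls of at least 20 CPM, the 3 largest against each cluster, called members of fixed lists, neighbors of the markers and 2 to 4 list members were named. The members and lists were chosen with earlier results of these data known. Expected unspliced shares used genes of at least 20 UMIs, and single genes at least 5 UMIs per side. Because all clusters of a mouse come from 1 sample, differences were paired by sample in exact sign-flip tests of 8 pairs, adjusted over 12 tests or, for single genes with 2 to 8 pairs, over the 31 named genes. Neighbors used 2000 variable genes and 1000 UMIs per nucleus. Summed cluster 14 counts ranged from 893061 to 2084230 UMIs per sample. Several windows and definitions of gene position, and a search for words in promoters that gave no clear motif, were tried before those shown. Position, class, length and promoter descriptions were chosen after the values were seen. The values of 1 gene that this rule covers are not reported here. Sequences are from RefSeq (GRCm38.p6). The scripts were tested on simulated data. The versions were pandas 2.3.3, numpy 2.4.6, scikit-learn 1.9.0, matplotlib 3.10.9 and scipy 1.17.1 under Python 3.11.15, and edgeR 4.0.16 in R 4.3.3 gave the TMM factors of an alternative.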

Additional observations from a re-analysis of the deposited data

Results flagged for a closer look

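Of 60 groups of 8 samples checked, 6 held a sample that lay far from the other 7, and chance alone gives about 1 in 20 such groups. The unspliced share of cluster 1 in mouse 3 was 59.8%, with the next sample at 63.5% and a median of 64.0%. In cluster 14, Grm4 was at 645 CPM in mouse 6 (next 338, median 274) and Nox4 at 224 CPM in the same mouse (next 85.8, median 78.5). In mouse 2, Gm47507 was at 961 CPM (next 563, median 504), Grik4 at 487 CPM (next 249.97, median 194) and Gm30551 at 293 CPM (next 189, median 163). What sets these mice apart was not tested.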

How the results depend on the processing

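The counts of higher genes stayed within 1.5 times under most settings. They were 361 with a minimum of 50 CPM, 630 with spliced counts alone (358 of them among the 992) and 1728 with a threshold of 1.5-fold. Lower genes numbered 223 with TMM factors, 132 with a pseudocount of 1 CPM, 164 with spliced counts (49 of them among the 70), 480 at 1.5-fold and 46 with clusters weighted equally (21 among the 70). The marker log2 ratios were 2.07 (Grm4), 3.26 (Dnajc6), 3.68 (Srsf12) and 3.04 (Asb15) with spliced counts, 6.32 (Grm4), 6.0 (Srsf12) and 4.61 (Asb15) with a pseudocount of 1, and 5.12 (Srsf12) with unspliced counts. Without the pairing (no replicate block) the values were as paired, and the unspliced difference of -1.51 from cluster 1 (exact permutation test, adjusted p = 0.397) and of 1.79 from cluster 17 (adjusted p = 0.386, exact test) and the hashtag differences of 3.64 points and 93.2 UMIs from cluster 17 (exact tests, adjusted p = 0.522 and 0.937) lost their calls, while that from cluster 0 kept it. No unpaired form of the value beyond the gene mix was run. When each mouse was left out in turn, calls changed for the value beyond the gene mix of cluster 17 (-1.34 to -0.872), the hashtag share over cluster 1 (0.588 to 0.932) and the hashtag UMIs over cluster 1 (17.7 to 32.9) and cluster 17 (84.3 to 109). With gene shares of the same mouse, added after the data were seen, the value beyond the gene mix of cluster 17 was -0.739 (exact test, adjusted p = 0.0586). As a mean over nuclei, a setting added after the data were seen, hashtag UMIs over cluster 1 were 40.4 (exact test, adjusted p = 0.0234). Genes per nucleus without thinning differed by -382 from cluster 0, -25.6 from cluster 1 and 569 from cluster 17, and with 500 UMIs by 3.75 from cluster 1 and 13.4 from cluster 17. Neighbors in cluster 14 were 44.2% with 500 UMIs, 33.0% with spliced counts (300 spliced UMIs) and 62.2% with unspliced counts. The share of higher low genes was above that of the 5′ side on the 3′ side in all 20 settings tried after seeing the pattern (15.1 to 35.8% against 4.69 to 16.3%). The causes were not tested.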

Other observations

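In hepatocytes before culture, the sum of the low genes past a 3′ end on the opposite strand was 2402 CPM in Liver and 1830 in CS, against 6208 in cluster 14 and 1993 in clusters 0, 1 and 17 together. Of the 992 higher genes 631 (63.6%) had a log2 ratio of cluster 17 over clusters 0 and 1 above 0, beside 47.9% of all tested genes.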
